A study of Mus musculus with 3 samples.

Results

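The broad open regions of the wild type (WT) islet library are the peaks of its ATAC-seq list on chromosomes 1 to 19 that spanned 2000 bp or more. They were 920 of the 59626 autosomal WT peaks (1.54%), and they held 2193123 of the 38561653 bp under those peaks (5.69%). The regions were chosen by their width in WT, so their WT widths are given as a description. What was measured here is how much of each region lay under a peak in the lists from Taf4 knockout (KO) islets, which the choice did not use. The 3 lists together held 362983 peaks.

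ATAC-seq uses a transposase that inserts sequencing adapters into accessible DNA, so its peaks mark open chromatin. There was 1 library of dissociated cells from isolated islets of Langerhans per group, and the strain of all groups was labelled C5LBl6. The WT library had the genotype wild type and no time, and the other libraries had the genotype Taf4 KO and the times 1 week and 5 weeks. In the study's mice an Ins1-driven, tamoxifen-inducible Cre recombinase acted on floxed Taf4 alleles in adults. Its controls were described as tamoxifen-injected Taf4+/+ animals with the same Cre, which the labels of the WT library do not spell out. The driver acts in beta cells, so the other islet cells kept Taf4, and fewer open beta cells and less open chromatin per cell cannot be told apart in these bulk libraries. How many animals gave cells to each library was not given in the sources used here.

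No group had a replicate. No test between groups was therefore made, and every difference given here is one between libraries. Intervals are Wilson 95% intervals over regions and cover counting error only, since regions of 1 library are not replicates. Those of differences were built from them by Newcombe's method. Read totals were not used here. The local background solved from each peak's fold enrichment and p value, which depends on depth and on other features of a library, had a floor of 3.66 reads for the WT library, 6.45 for the 1 week library and 9.38 for the 5 weeks library. Their lists held 59626, 138129 and 150230 autosomal peaks. For the background, fold and p were treated as values of a single position. Whether this holds for values listed per broad peak was not tested, so the floors are approximate.

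A single factor-bound site usually opens less than the length of a nucleosome or so of DNA. A peak of 2 kb or more therefore usually takes in a CpG-rich promoter with its flanks, or neighbouring enhancers, and wide stretches of open, acetylated chromatin are known at genes that set a cell's identity. TAF4 is a subunit of TFIID, the factor that recognises core promoters and helps assemble the RNA polymerase II machinery there.

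A region was called kept whole when 1 KO peak covered at least 90% of it, narrowed when a single KO peak covered less, broken when 2 or more KO peaks lay over it and none reached 90%, and without a peak when no KO peak shared 1 bp with it. A narrowed region's peak can run past 1 edge. In every list the closest neighbouring peaks were 801 bp apart, so closer stretches had been merged before deposit, and a break is a hole of more than that.

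The 5 regions shown next are examples of regions kept whole, broken or without a peak, and none of them was narrowed at either time. Windows of 250 bases from them, 7 in all, were read from NCBIM37, the assembly called mm9, with every CG dinucleotide in capitals. They were chosen after the values were seen. Each is written 5′ to 3′ on the strand of its gene. Upstream windows end at the last base before an annotated transcript. For Jun and Nkx6-1 this is the start furthest upstream, while Ins2 and Ncor1 each have a further annotated start upstream of the window. Jun, which encodes an AP-1 subunit, stood for regions kept whole at both times, and its upstream window, chr4:94718914-94719163 on the minus strand, had 15 CG.

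Jun upstream: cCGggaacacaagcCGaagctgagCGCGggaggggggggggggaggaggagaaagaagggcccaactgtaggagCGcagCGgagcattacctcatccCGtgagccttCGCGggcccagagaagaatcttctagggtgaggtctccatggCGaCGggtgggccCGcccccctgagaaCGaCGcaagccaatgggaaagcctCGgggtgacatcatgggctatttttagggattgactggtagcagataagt

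Ins2, an insulin gene, was broken at 1 week and whole at 5 weeks. Its upstream window, chr7:149865632-149865881 on the minus strand, lay under a peak in all 3 lists. The window from its intron, chr7:149864958-149865207, lay in the hole between the 1 week peaks and under the 5 week peak. Each held 2 CG, and GC was 52.8% upstream and 48.8% in the intron.

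Ins2 upstream: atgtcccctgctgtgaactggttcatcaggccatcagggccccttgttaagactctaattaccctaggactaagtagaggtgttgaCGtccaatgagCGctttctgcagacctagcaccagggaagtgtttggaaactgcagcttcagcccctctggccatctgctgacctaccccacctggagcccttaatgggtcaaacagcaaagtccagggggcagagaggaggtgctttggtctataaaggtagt

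Ins2 intron: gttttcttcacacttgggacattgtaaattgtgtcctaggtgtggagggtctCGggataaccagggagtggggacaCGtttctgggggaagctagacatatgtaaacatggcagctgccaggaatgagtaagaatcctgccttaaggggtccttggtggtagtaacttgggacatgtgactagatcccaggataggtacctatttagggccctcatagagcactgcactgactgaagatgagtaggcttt

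Nkx6-1, which encodes a homeodomain factor of beta cells, was broken at both times. Its upstream window, chr5:102094246-102094495 on the minus strand, was under a peak in all 3 lists and had 19 CG. The window from the coding part of its first exon, chr5:102092792-102093041, was in the hole at both times, with 31 CG and a GC content of 77.2%.

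Nkx6-1 upstream: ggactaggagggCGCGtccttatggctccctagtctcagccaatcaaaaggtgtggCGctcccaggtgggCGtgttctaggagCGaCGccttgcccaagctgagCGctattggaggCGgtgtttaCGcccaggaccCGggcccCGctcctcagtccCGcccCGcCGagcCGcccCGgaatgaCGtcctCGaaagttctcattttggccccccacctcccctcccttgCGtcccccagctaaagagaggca

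Nkx6-1 first exon: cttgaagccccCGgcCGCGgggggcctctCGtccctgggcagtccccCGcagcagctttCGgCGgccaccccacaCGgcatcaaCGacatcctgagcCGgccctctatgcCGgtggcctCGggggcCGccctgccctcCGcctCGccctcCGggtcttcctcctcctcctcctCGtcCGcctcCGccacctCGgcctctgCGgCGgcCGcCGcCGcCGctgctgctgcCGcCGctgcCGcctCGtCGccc

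Ncor1, which encodes a nuclear receptor corepressor, shares its region with Pigl on the other strand and was without a peak at 1 week. Its upstream window, chr11:62271309-62271558 on the minus strand, had 13 CG and was covered over all 250 bases at 5 weeks.

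Ncor1 upstream: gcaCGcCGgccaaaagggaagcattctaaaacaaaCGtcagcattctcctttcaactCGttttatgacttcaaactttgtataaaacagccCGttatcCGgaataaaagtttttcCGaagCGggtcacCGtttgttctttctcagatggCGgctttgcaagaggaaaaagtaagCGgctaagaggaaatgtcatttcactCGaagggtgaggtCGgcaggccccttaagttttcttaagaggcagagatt

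Nbas, a gene of vesicle transport between Golgi and endoplasmic reticulum, held in an intron a region that was whole at 1 week and broken at 5 weeks. The window at the centre of the 5 week hole, chr12:13582976-13583225 on the plus strand, had 1 CG.

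Nbas intron: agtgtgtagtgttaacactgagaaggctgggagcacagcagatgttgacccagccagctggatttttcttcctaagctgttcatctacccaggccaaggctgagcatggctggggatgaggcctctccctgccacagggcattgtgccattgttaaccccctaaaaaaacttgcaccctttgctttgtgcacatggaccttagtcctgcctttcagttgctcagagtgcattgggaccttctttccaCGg

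The broad regions mostly lay over promoters. A promoter window, from 1000 bp upstream to 100 bp downstream of a protein-coding start, was touched by 689 of the 920 regions (74.9%), against 21% of all autosomal WT peaks. A further 34 regions held another kind of transcript start, 96 lay in the body of a coding gene and 101 were between genes, 1434 to 501746 bp from the nearest coding start. The promoters of 764 of 21410 autosomal coding genes (3.57%) were under them. In 80 regions there were 2 or more such genes, and in 74 of these the genes lay on both strands.

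CpG content split the regions in the same way. With a GC content of at least 50% and at least 0.6 of the CG dinucleotides that base composition predicts, 534 regions were CpG-rich (58.0%), among them 498 of the 689 promoter regions (72.3%) and 36 of the other 231 (15.6%). The median number of CG per 100 bp was 6.44 at promoters and 1.89 elsewhere. In the central 300 bp the GC box GGGCGG, searched on both strands, occurred in 42.4% of the broad regions and 19% of all autosomal WT peaks. Among peaks at promoters alone the order was the opposite, 49.6% of the broad regions against 58.1% of all WT peaks. The AP-1 word TGANTCA was in 5.33% of the broad regions against 11.8% of all WT peaks, and at promoters in 4.35% against 4.17%. For the homeodomain word TAATTA these shares were 3.04% against 6.05%, and at promoters 1.74% against 1.38%. The forkhead word TGTTTAC was in 3.15% against 6.75%, and at promoters in 2.47% against 1.84%. The central window is a smaller part of a broad region (median width 2263 bp) than of an autosomal WT peak in general (500 bp). Words elsewhere in a region were not searched, so these shares do not describe whole regions. Matches to such words are a description of the sequence and name no bound factor.

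The regions were wide, and their fold enrichment was near the middle of the WT list. Fold and q are listed once per peak, so they do not describe the shape inside a region. Their widths ran from 2000 to 4451 bp with a median of 2263 bp, and 70 of them reached 3000 bp. The median fold enrichment was 3.14, at the 48.2 percentile of the WT list, and the median −log10 q was 7.63, at the 73.1 percentile. At the threshold, the regions just inside were at Fut8 (2000 bp), Arf1 (2001 bp) and Ttc15 (2001 bp), and those just outside, each 1997 bp wide, were at 4930412M03Rik, Pcdh8 and near Gcap14.

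At 1 week 65.3% of the summed length of the regions lay under a KO peak, and at 5 weeks 87.5%. The median region was covered over 69.5% at 1 week and 97.4% at 5 weeks. Coverage was higher at 5 weeks in 698 regions, higher at 1 week in 140 and equal in 82. Less than 50% of the length was covered in 300 regions at 1 week and in 63 at 5 weeks.

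Of the 920 regions 349 were kept whole at 1 week (37.9%, interval 34.9 to 41.1), against 27% of all autosomal WT peaks. Narrowed regions numbered 371 (40.3%, interval 37.2 to 43.5; 34.1% of all WT peaks). Broken ones were 153 (16.6%, interval 14.4 to 19.2; 0.465% of all WT peaks). No peak was listed over 47 (5.11%, interval 3.86 to 6.73), against 38.5% of all WT peaks. These last shares depended on which KO peaks were kept. With 1 week peaks of −log10 q of at least 3, 8.26% were broken and 20.8% without a peak, and with the 1 week list cut to the number of WT peaks 11.5% and 13.4%.

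At 5 weeks 638 regions were kept whole (69.4%, interval 66.3 to 72.2), against 52.4% of all autosomal WT peaks. There were 187 narrowed regions (20.3%; 27.1% of all WT peaks), 92 broken ones (10%; 0.287% of all WT peaks) and 3 without a peak (0.326%; 20.3% of all WT peaks). The share without a peak was 2.94% to 4.46% in the settings that kept fewer KO peaks. A peak of 2 kb or more lay over 379 regions at 1 week (41.2%) and over 649 at 5 weeks (70.5%).

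**Figure D1:**
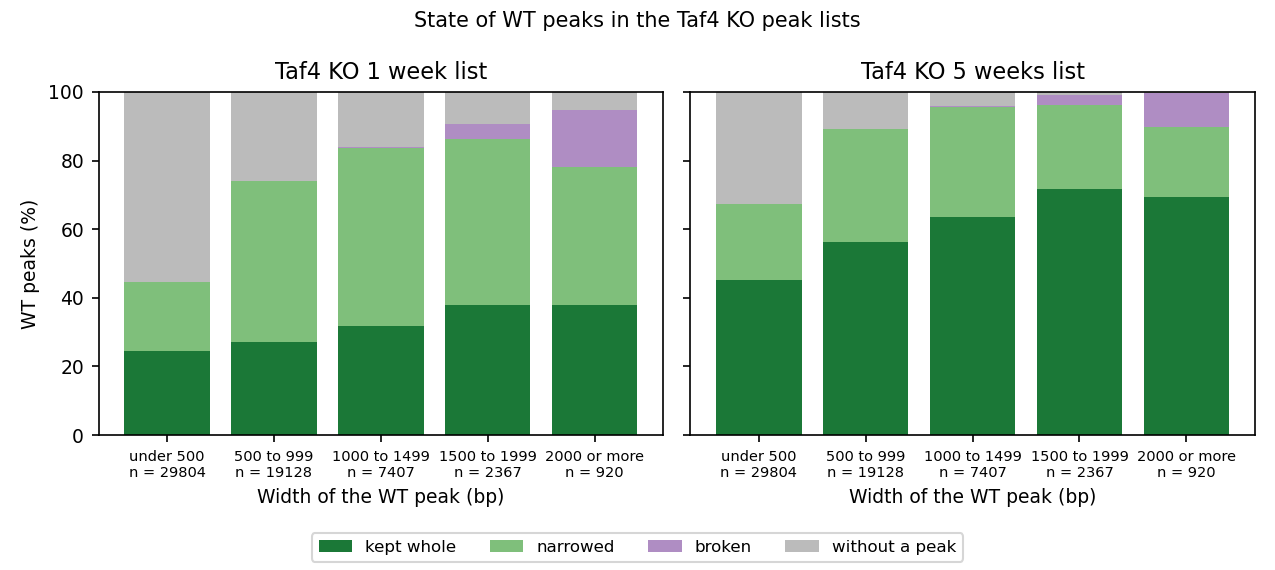
Share of autosomal WT peaks (vertical axis, %) kept whole, narrowed, broken or without a peak in the 1 week (left) and 5 weeks (right) Taf4 KO lists, by width of the WT peak in bp (horizontal axis, number of peaks under each bar). Kept whole reached 37.9% at 1 week and 69.4% at 5 weeks in the widest class, while broken peaks were 16.6% and 10% of it.

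The share of broken peaks depends on width by construction. A peak under 802 bp cannot be broken when merged peaks are at least that far apart, and none of the peaks under 1000 bp was. The next class below, the 2367 WT peaks from 1500 bp to under 2000 bp, was kept whole about as often as the broad regions, at 37.9% at 1 week and 71.8% at 5 weeks. It was broken less often, at 4.35% and 2.66%, and without a peak more often, at 9.46% and 1.01%. Among the broad regions themselves, those of 3000 bp or more were broken in 32.9% at 1 week and 27.1% at 5 weeks.

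Where the 2 times differed, the region was mostly whole in the 5 weeks list and not in the 1 week list. Kept whole at both times were 309 regions (33.6%), narrowed at both 138, broken at both 35 and without a peak at both 3. Of the 153 regions broken at 1 week 109 were whole at 5 weeks, as were 198 of the 371 narrowed and 22 of the 47 without a peak. In the other direction 26 regions whole at 1 week were narrowed at 5 weeks and 14 were broken. The KO animals of both times are different libraries, so this is no time course of 1 sample.

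**Figure D2:**
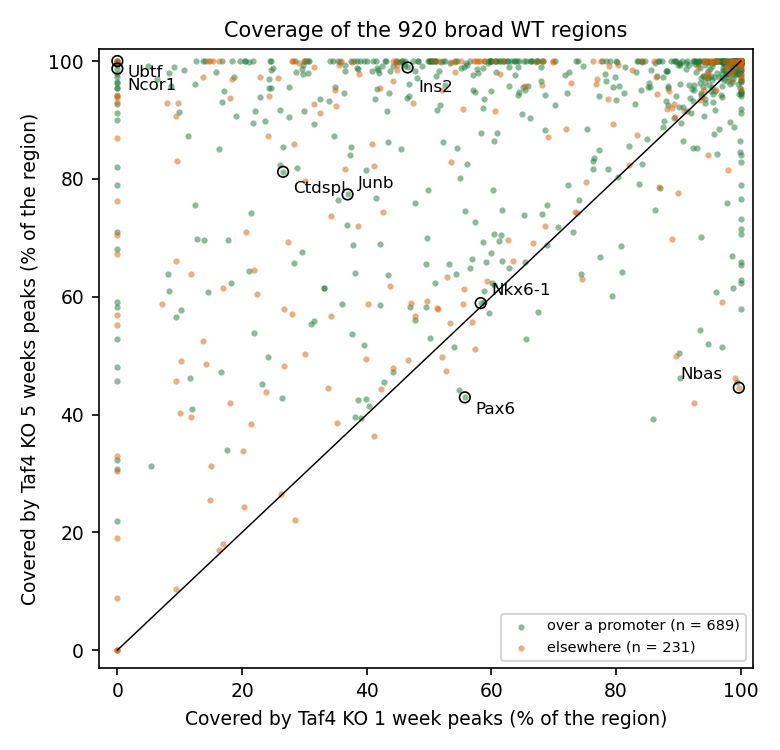
Percent of each of the 920 broad WT regions covered by 1 week Taf4 KO peaks (horizontal axis) and by 5 weeks Taf4 KO peaks (vertical axis). Each point is a region, green over a promoter and orange elsewhere, circles mark named regions and the line marks equal cover. The 698 regions above the line outnumber the 140 below it, and Ubtf and Ncor1 sit at 0% on the horizontal axis.

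The holes in broken regions were single and wide. Of the 153 regions broken at 1 week 150 had 2 pieces, and the 156 holes had a median length of 1016 bp (802 to 2513). At 5 weeks 91 of 92 had 2 pieces and the 93 holes had a median of 899 bp. Narrowed regions kept a median peak of 1225 bp at 1 week and 1715 bp at 5 weeks. The peak stopped short of both edges in 240 of 371 narrowed regions at 1 week (64.7%) and in 65 of 187 at 5 weeks (34.8%), and it contained the midpoint of the region in 62.0% and 85.0%.

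Within a region the uncovered stretch was usually the less GC-rich one. In 149 of the 153 regions broken at 1 week the hole had a median GC of 55.1% and the covered pieces 61.1%, and the hole was the richer in 53 of them. At 5 weeks the medians over 90 regions were 50.6% and 59.8%, with the hole richer in 15. The ends left out of narrowed regions had a median GC of 55.3% against 59.6% under the peak at 1 week, and 51.8% against 57.3% at 5 weeks.

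The base composition of the wider neighbourhood went the other way. In 5 equal groups of 184 regions by the GC content of the surrounding 1 Mb, the share kept whole at 1 week was 64.7%, 52.7%, 39.1%, 19.6% and 13.6% from the lowest GC (36.7 to 42.5%) to the highest (47.8 to 53.9%). The share without a peak was 0.543% in the lowest group and 11.4% in the highest. At 5 weeks the shares kept whole were 74.5%, 73.4%, 71.7%, 68.5% and 58.7%. The gap between the lowest and the highest group was thus 51.1 percentage points at 1 week (interval 42.0 to 58.9) and 15.8 at 5 weeks (interval 6.13 to 25).

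**Figure D3:**
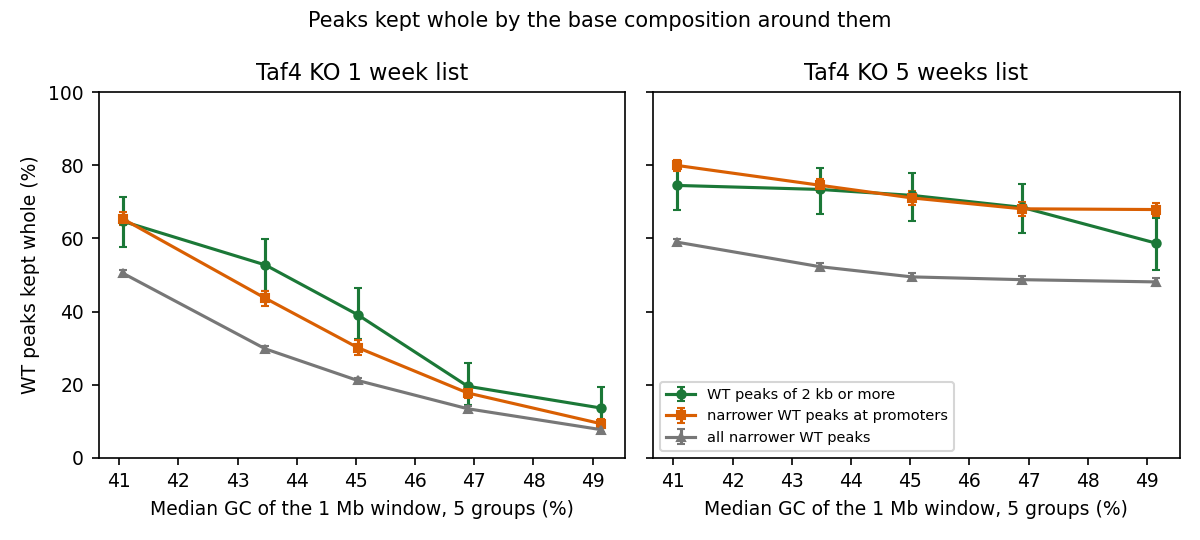
Share of WT peaks kept whole (vertical axis, %) in the 1 week (left) and 5 weeks (right) Taf4 KO lists, against the median GC of the surrounding 1 Mb in 5 groups (horizontal axis, %). Bars are Wilson 95% intervals over peaks. Broad regions went from 64.7% to 13.6% at 1 week and narrower peaks at promoters from 65.4% to 9.30%, while at 5 weeks the broad regions stayed between 58.7% and 74.5%.

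Narrower WT peaks showed the same order, from 50.5% whole in the lowest GC group to 7.68% in the highest at 1 week, and from 65.4% to 9.30% for those at promoters. The 1 week library therefore differed from WT along megabase GC both in the broad regions and in the pooled narrower peaks, and the part of this in the state of any named region was not tested.

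Promoter regions were kept whole more often than the others, 42.5% against 24.2% at 1 week (difference 18.3 points, interval 11.3 to 24.6) and 73.7% against 56.3% at 5 weeks (17.5 points, interval 10.3 to 24.6). CpG-rich regions were whole in 45.3% at 1 week and 78.7% at 5 weeks, and the rest in 27.7% and 56.5%. Promoter regions were whole more often than other regions in each GC group at both times. The regions with the weakest WT −log10 q were whole least often, 24.1% at 1 week and 57.0% at 5 weeks in the lowest of 3 groups against 44.3% and 77.2% in the highest, so WT strength moved with the outcome too.

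Around the start itself cover was kept best. In 596 regions with 1 promoter gene whose start lay inside, WT regions reached a median of 983.5 bp upstream and 1431.5 bp downstream of the start nearest the centre, and 391 of them (65.6%) reached further downstream. The start was under a peak in 477 (80.03%) at 1 week and 576 (96.6%) at 5 weeks. Upstream 75.8% of the WT length was covered at 1 week and downstream 65.4%, and at 5 weeks these were 91.1% and 89.0%. With the start furthest upstream in place of the nearest, 488 starts (81.9%) were covered at 1 week and 575 (96.5%) at 5 weeks.

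**Figure D4:**
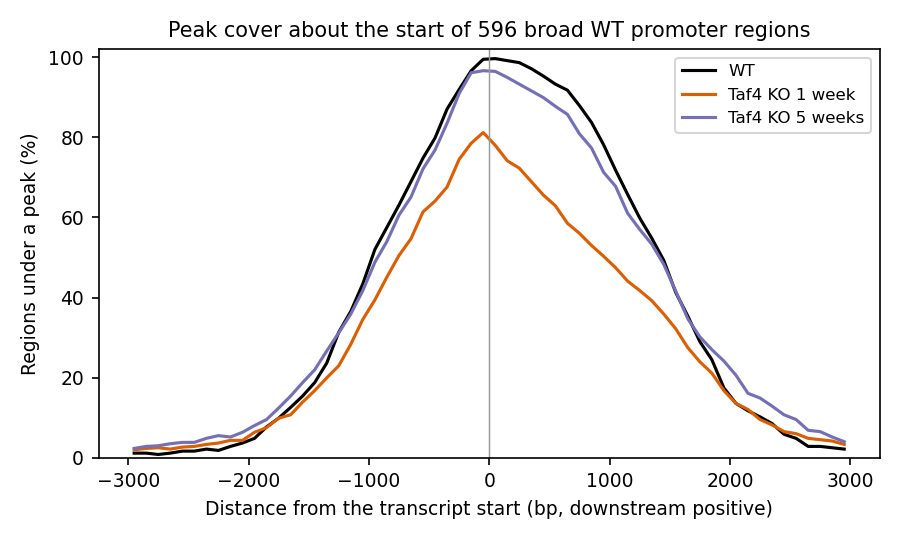
Share of 596 broad WT promoter regions under a peak (vertical axis, %) by distance from the transcript start in bp, downstream positive (horizontal axis), in the WT (black), 1 week (orange) and 5 weeks (purple) lists. The start was under a peak in 80.03% at 1 week and 96.6% at 5 weeks, and the 1 week curve lies furthest under WT downstream of the start.

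Genes of beta cells were the first list examined. Of its 36 coding genes (Glis3 has 2 gene IDs) 31 had a WT peak at the promoter and 9 lay under a broad region. Taking the widest region of each of the 9 genes, 2 were kept whole at 1 week, 4 narrowed and 3 broken, and at 5 weeks 5 were whole, 3 narrowed and 1 broken. Over all 920 broad regions the shares whole, narrowed and broken were 37.9%, 40.3% and 16.6% at 1 week. At 5 weeks they were 69.4%, 20.3% and 10%, and 9 genes are too few to set the list apart from them. Against all coding genes, of which 3.57% lay under a broad region, the 9 genes were 25% of the list, which was drawn up with earlier results of these data known. Here and for the lists below, the 3.57% counts coding genes with and without a WT peak at the promoter. The share among genes with such a peak is not given here.

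The Ins2 region, chr7:149862885-149866274, spanned 3390 bp and held the coding exons with their flanks. At 1 week it was covered over 46.5% by pieces of 1145 and 495 bp, chr7:149862823-149863967 and chr7:149865589-149866083. The first lay past the 3′ end of the gene and the second over the upstream window printed above, and the 1621 bp between them, with all of the coding exons, were uncovered. At 5 weeks a single peak of 3642 bp covered 98.9%. The −log10 q was 5.48 in WT, 3.29 and 3.05 for the 1 week pieces and 8.59 for the 5 week peak.

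Nkx6-1, chr5:102091706-102094679, was a region of 2974 bp with a hole in nearly the same place at both times. The 1 week pieces of 824 and 909 bp covered 58.3% and the 5 week pieces of 729 and 1076 bp covered 58.9%. The piece over the start had a −log10 q of 6.86 at 1 week and 17.9 at 5 weeks, while the downstream piece had 5.68 and 1.47. All of the coding part of the first exon lay in the hole in both lists.

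Pax6, a factor of all islet endocrine lineages, had 2 broad regions with different outcomes. The upstream one, chr2:105506699-105509126 (2428 bp), was kept whole at both times, covered over 99.1% and 100%. The other, chr2:105513842-105516796 (2955 bp), was narrowed at both, to a peak of 1647 bp at 1 week (55.7% of the region) and of 1268 bp at 5 weeks (42.9%). The WT region had a −log10 q of 19.9, the 1 week peak 11.7 and the 5 week peak 25.1. The narrowest of them thus had the highest value, though each is 1 value per peak, computed within its own library.

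Insm1 (2669 bp) and Rfx6 (2044 bp), both factors of endocrine development, were kept whole at both times, over 98.2% and 98.99% for Insm1 and 99.8% and 100% for Rfx6. Glis3 (2375 bp), a zinc finger factor that acts on the insulin gene, was broken at 1 week over 39.6% and whole at 5 weeks. Mnx1 (2021 bp), a homeodomain factor, was covered over 52.3% at 1 week and 100% at 5 weeks. Pcsk1 (2604 bp), which encodes a convertase that processes proinsulin, was narrowed at both times, to 77.4% and 66.7%.

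**Figure D5:**
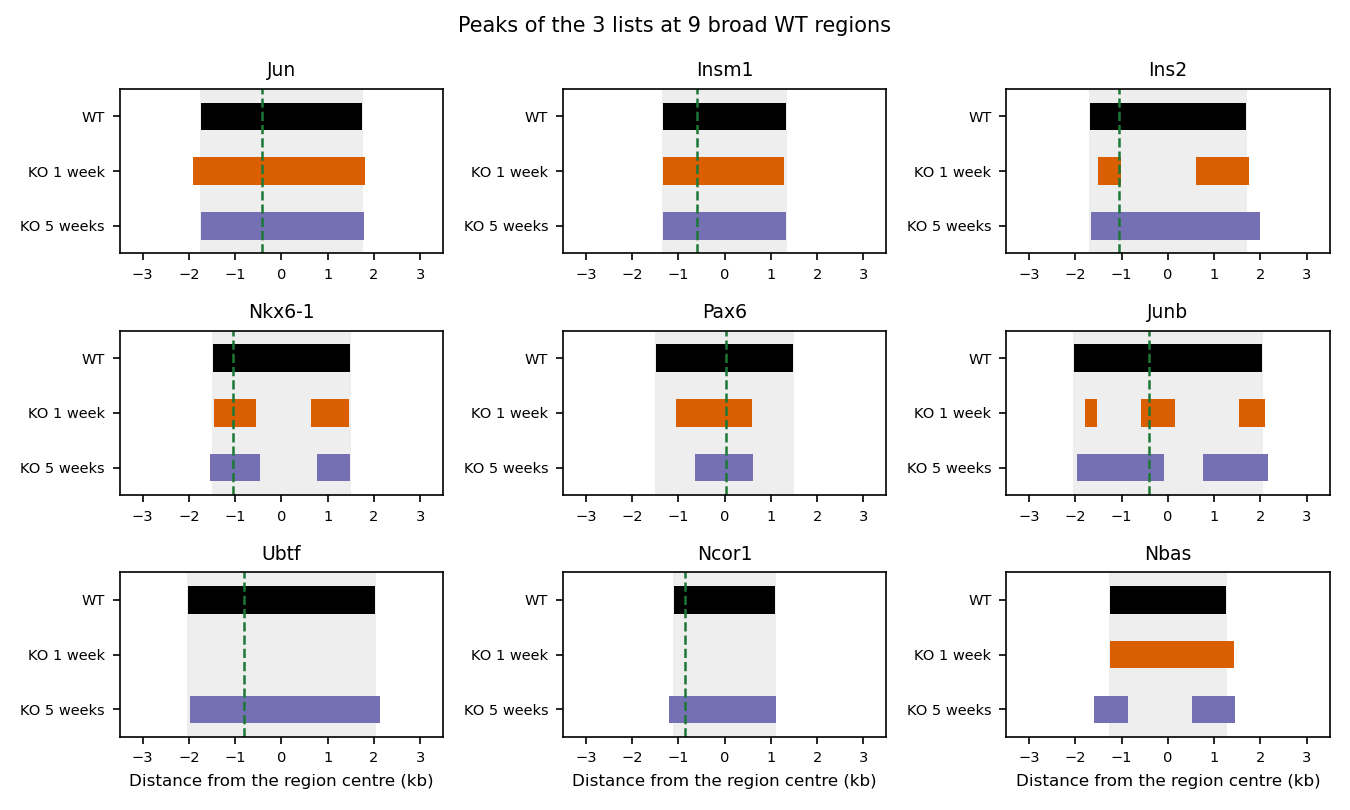
Peaks of the WT, 1 week and 5 weeks lists (rows) at 9 broad WT regions, by distance from the centre of the WT region in kb with the gene running left to right (horizontal axis). Grey marks the WT region and the dashed line the annotated start furthest upstream in it. Jun and Insm1 have 1 peak in each list, Nkx6-1 has 2 pieces at both times, and Ubtf and Ncor1 have no 1 week peak.

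Among 10 autosomal coding genes of alpha cells 2 lay under broad regions (20%, beside 3.57% of all coding genes). Etv1 (2529 bp), an ETS factor, was covered over 92.4% at 1 week and 85.2% at 5 weeks. None of the 8 delta and other endocrine genes lay under one. Of the lists for other cells of the pancreas, the 6 duct genes had 1 under a broad region, and none of the 8 endothelial, 7 stellate and fibroblast, 6 immune and 8 acinar genes had any. None of the 7 genes that islet cells do not use and of the 40 Hox genes had a broad region. As a check of the islet label, a WT peak of any width lay at the promoter of 31 of 36 beta, 8 of 10 alpha, 1 of 8 delta and other endocrine, 3 of 6 duct, 2 of 8 acinar and 2 of 8 endothelial genes, and of none of the stellate and fibroblast and immune genes.

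Immediate early genes, which are induced within minutes of a stimulus, had the highest share under broad regions of the lists examined, 12 of 25 (48%), beside 3.57% of all coding genes. A WT peak of any width lay at the promoter of 24 of the 25. Of the 12 under broad regions, 5 were kept whole at 1 week, 1 narrowed and 6 broken, and at 5 weeks 8 were whole, 1 narrowed and 3 broken. Over all 920 broad regions the shares whole, narrowed and broken were 37.9%, 40.3% and 16.6% at 1 week. At 5 weeks they were 69.4%, 20.3% and 10%. Breaks were more frequent in the widest regions. Of the 6 genes broken at 1 week, Klf10, Ier2 and Junb had regions of 3530, 3706 and 4054 bp. Btg1, Fosb and Nr4a3 had regions of 2142, 2285 and 2444 bp. Jun, Myc and Nr4a2, at 3476, 3736 and 3453 bp, were whole. Regions of equal width were not compared, so the part of width was not tested and the counts are not shown to set the list apart. Dissociation of tissue is a known stimulus for such genes, and its part here was not tested.

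Jun (3476 bp, chr4:94716755-94720230), Myc (3736 bp, chr15:61815904-61819639) and Nr4a2 (3453 bp, chr2:56966735-56970187), the last an orphan nuclear receptor, were covered over 96.5 to 100% in both lists. Junb (4054 bp, chr8:87500188-87504241), the second widest of the broad regions, was in 3 pieces at 1 week of 572, 746 and 262 bp, which together covered 36.9% of it. At 5 weeks its 2 pieces of 1395 and 1876 bp covered 77.4%. The middle piece of the 1 week list lay at the start of the gene. Klf10 (3530 bp), a zinc finger factor, was broken at 1 week over 66.2% and whole at 5 weeks. Ier2 (3706 bp) was broken at both times, over 41.5% and 76.7%.

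Genes of insulin signalling and growth had 6 of 17 under broad regions (35.3%, beside 3.57% of all coding genes). All 6 of these were whole at 5 weeks, as were 69.4% of all broad regions. Igf1r (2542 bp), a growth factor receptor, and Irs2 (2864 bp), an adaptor of the insulin receptor, were whole at 1 week too, over 99.5% and 97.6%. Foxo1 (2708 bp), a forkhead factor held in check by insulin, and Pim3 (2608 bp), a kinase, were broken at 1 week over 67.5% and 46.9%. Akt2 (2021 bp), a kinase downstream of the insulin receptor, was without a peak at 1 week and covered over 95.3% at 5 weeks.

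Of 13 circadian clock genes 3 were under broad regions (23.1%, beside 3.57% of all coding genes). Bhlhe40 (3217 bp) and Cry1 (2007 bp), both repressors of the clock, were whole at both times, while Nr1d1 (2831 bp), a nuclear receptor of the clock, was covered over 13.8% at 1 week and 100% at 5 weeks. Of 14 chromatin remodellers and transcription factors 3 were (21.4%), of which Yy1 (2553 bp), a zinc finger factor with 14.1 CG per 100 bp in its region, was broken at both times over 31.6% and 55.9%. Chd4 (2051 bp), an ATPase of the NuRD complex, was broken at 1 week over 49.8% and narrowed at 5 weeks to 78.1%, and Tcf4 was whole in both lists. Ddit3 (2441 bp) and Hsp90ab1 (2311 bp) were the 2 of 22 stress genes under a broad region (9.09%). Ddit3, a factor of the endoplasmic reticulum stress response, was covered over 60.3% at 1 week and 86.4% at 5 weeks, and Hsp90ab1, a chaperone gene, over 24.6% and 100%.

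None of the 15 autosomal gene IDs of TFIID (Taf9 has 2) lay under a broad region, and none of 7 nuclear long non-coding RNA genes did. Housekeeping gene families were near the 3.57% of all coding genes, with 1 of 21 ribosomal protein genes (4.76%; Rpl7, in a region shared with Rdh10, covered over 76.2% and 83.0%) and 2 of 67 histone genes (2.99%), Hist1h1e and Hist1h2be, which share a region. At the promoter of Taf4a, the gene inactivated in the KO, WT peaks were 897 and 548 bp wide, the 1 week list had 1 peak of 487 bp and the 5 weeks list had 732 and 399 bp, so it was not among the broad regions. A peak there does not check the deletion, and islet cells without the Cre keep the gene.

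Of the 10 widest regions 6 were broken at 1 week and 4 at 5 weeks. Ctdspl (4451 bp, chr9:118834576-118839026), which encodes a small phosphatase, was covered over 26.6% by a single 1 week peak of 1312 bp and over 81.2% by 5 week peaks of 1928 and 1866 bp. Ubtf (4052 bp, chr11:102178215-102182266), a factor of ribosomal RNA transcription, had no 1 week peak and was whole at 5 weeks over 98.7%. Baz2a (3824 bp), a subunit of a nucleolar remodelling complex, was in 3 pieces at 1 week over 45.6% and whole at 5 weeks. Cfl1 (3830 bp), an actin-severing protein gene, and Mbnl2 (3829 bp), a splicing factor gene, were broken at 1 week over 68.3% and 29.7% and whole at 5 weeks. Lzts2 (3835 bp) was narrowed at both times, to 54.4% and 85.3%. Nr3c2 (3776 bp), the mineralocorticoid receptor gene, was the only 1 of the 10 widest to be whole in both lists.

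A region away from coding genes, chr17:39979985-39983465 (3481 bp), was among the 5 widest kept whole in both lists. The nearest coding start, of Pgk2, was 362088 bp away, and the region had a GC content of 68.1% and 10.9 CG per 100 bp. Its WT −log10 q was 20.7, but its WT fold was at the 0.406 percentile of the WT list. Single peaks of 5744 bp at 1 week and 5741 bp at 5 weeks covered nearly all of it and ran past its end. Whether reads from other copies of this sequence were placed here was not tested.

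Sfi1 (3937 bp) and Gm10718 (3873 bp) were also among the 10 widest, and both were broken at both times, Gm10718 into 3 pieces in each list over 39.1% and 39.4%. In the Gm10718 region 90.3% of the 32-base words occur more than once in the assembly, where uniquely placed reads are scarce, against 9.27% at Sfi1. This counts only copies present in the assembly, and others were not tested. The WT fold at Sfi1 was 1.96, at the 0.121 percentile of the WT list. Over all regions the median share of such words was 0%, 41 regions exceeded 10% and 4 exceeded 90%. Without those 41 regions 38.7% of the remaining 879, Sfi1 among them, were kept whole at 1 week and 69.5% at 5 weeks.

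Regions without a 1 week peak were not all weak in WT. Ranked by WT −log10 q, they began with Ddx5 (2224 bp), an RNA helicase gene, at 16.0, followed by Tbcc at 11.2, Car15 at 11.1, Gga1 at 11.0, Ncor1 at 10.7, Pcbp1 at 10.5, Tollip at 10.3 and Zfp36l1 at 9.14. The Car15 and Zfp36l1 regions lay 8932 and 1434 bp from the starts of those genes. At 5 weeks 6 of the 8 were whole, Zfp36l1 was narrowed to 87.0% and Tollip to 45.7%. The 47 regions had a median WT −log10 q of 4.66 and a median surrounding GC of 47.6%, against 8.53 and 43.5% in the 349 kept whole.

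The regions whose cover was higher at 5 weeks by the most included Ncor1, a stretch inside H2afy (2141 bp), Vps37b (2068 bp) and a region 53783 bp from the start of Odf3l1, each at 0% at 1 week and 99.7 to 100% at 5 weeks. The opposite order was led by Nbas, which was covered over 99.7% at 1 week and 44.6% at 5 weeks. Zbtb2 (2772 bp), a zinc finger factor gene, was covered over 99.4% and 45.5%. Dennd1a (2164 bp) had 99.1% and 46.2%, BC024582 (2113 bp) 92.4% and 42.0%, and Zfp467 (2101 bp) 86.0% and 39.3%. The Nbas, Dennd1a and BC024582 regions had under 2 CG per 100 bp and Zbtb2 had 9.78.

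The 3 regions without a peak in both lists had low WT scores. They lay 13065 bp from the start of Snrpe, in the body of Cdadc1 and 108047 bp from the start of Gm9867, with WT −log10 q of 1.66, 2.37 and 1.17. The lowest value over all broad regions was 1.17.

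The wide peaks of the KO lists were mostly not whole in WT. The 1 week list had 2578 autosomal peaks of 2 kb or more (1.87% of its peaks) and the 5 weeks list 3719 (2.48%), against 920 in WT (1.54%). With KO peaks kept only where they would pass at the WT background floor, the counts were 1291 and 1963. A promoter lay under 753 of the 1 week peaks (29.2%) and 1382 of the 5 week peaks (37.2%), against 74.9% of the WT regions. Looked up in the WT list in the same way, 11.8% of the 1 week wide peaks were whole and 57.7% had no WT peak, and 14.1% of the 5 week wide peaks were whole and 40.7% had none. The KO lists held 138129 and 150230 autosomal peaks of any width against 59626 in WT. The same shares over all KO peaks are not given here, so these are not shown to be traits of wide peaks. Where a region was whole in a KO list its peak had a median of 103% of the WT width at 1 week and 104% at 5 weeks. The longest KO peak over each region that had one ranked high in its own list. The median −log10 q percentile was 83.4 over 873 regions at 1 week and 84.5 over 917 at 5 weeks. Smaller pieces are not counted in this. The same percentiles for KO peaks over narrower WT peaks are not given here, so a high rank is not shown to be a trait of the broad regions.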

How the data were processed

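ATAC-seq peak lists of 3 libraries, 1 per group, were used as deposited. The authors mapped reads to mm9 with Bowtie 1.0.0, keeping reads with a unique best place, and called broad peaks in each library with MACS2 2.1.1 (versions per the submitters' processing notes). Each deposited list gives, per peak, its start and end, a score, a fold enrichment over local background, and a −log10 p and −log10 q value, all computed by the authors' peak caller within that library. Whether duplicates were removed or ends shifted was not given in the sources used here. Since threshold and merging act within each library, its depth affects how many peaks it lists and how wide they are.

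Groups came from the genotype and time labels. Peaks on the 19 autosomes of at least 2000 bp in WT were set against each KO list, and states, covered length and Wilson 95% intervals were computed in Python 3.11.15 with pandas 2.3.3 and SciPy 1.17.1. A promoter was the window reaching 1000 bp upstream and 100 bp downstream of a protein-coding start in GENCODE M1 on NCBIM37. Local background was solved from fold and p under a Poisson model. Both steps were tested on simulated data, where each peak of the background test had a single count and a single background value. The members and gene lists were chosen with earlier results of these data known. Named regions were the 10 widest, all of beta, alpha and delta cell genes, up to 4 of each other list, up to 8 without a peak, up to 5 in most pieces, the 5 widest whole in both lists, the 5 with the largest differences in cover each way, and 3 on each side of 2000 bp. Taf4a was also named. Some regions that this rule selects are not reported here. Akt2, Hist1h1e, Rpl7, the narrower Pax6 region and the printed windows were chosen after values were seen. Alternatives changed the share that counts as whole, the overlap, the joining of KO peaks and the KO peaks kept.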

Additional observations from a re-analysis of the deposited data

How the results depend on the processing

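No paired analysis was possible because each group had 1 library and no test was made. Of 108 alternative values, those given here, at 1 week first, are the shares that left the 95% interval of the value in the report (for covered length, the interval of an equal share of the 920 regions) and the counts of wide KO peaks that moved by over 1.5 times. With 80% counted as whole, whole regions were 45.1% and 76.2% and narrowed ones 33.2% and 13.5%. With KO peaks of −log10 q at least 3, narrowed regions were 35.2% at 1 week, broken ones 8.26% and 7.61%, those without a peak 20.8% and 2.94%, the length covered at 1 week 55.9%, and KO peaks of 2 kb or more 1041 and 2170. With each KO list cut to the number of WT peaks, broken regions were 11.5% and 7.61%, those without a peak 13.4% and 3.04%, the length covered at 1 week 60.6%, and wide KO peaks 1295 and 2146. With KO peaks rescaled to the WT background floor, broken regions were 11.4% and 6.74%, those without a peak 13.4% and 4.46%, the length covered 60.5% and 83.8%, and wide KO peaks 1291 and 1963. These 3 settings drop whole peaks and cannot narrow one. With KO peaks up to 1000 bp apart joined, chosen after seeing the data, whole regions were 44.0% and 75.4%, broken ones 8.70% and 3.37%, the length covered 68.4% and 90.02%, and wide peaks 4036 and 5561, the last within 1.5 times of the 3719 in the report. Joining peaks up to 200 bp apart changed nothing, since none were that close. An overlap of at least 100 bp, or leaving out 41 regions of repeated sequence (chosen after seeing the data), moved no value out of its interval. In every one of these settings more regions were whole and fewer were broken or without a peak at 5 weeks than at 1 week. For broken regions the difference was small with KO peaks of −log10 q at least 3, at 76 regions at 1 week and 70 at 5 weeks. The promoter and GC differences in whole regions stayed within their intervals in the settings run for them.

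Read depth was not in the lists, so how far a break, a narrowing or a missing peak at 1 week reflects depth in these libraries was not tested. Without replicates the spread between animals is unknown.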

Other observations

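Several genes had more than 1 broad region, counting regions inside a gene, at its promoter or nearest to its start. There were 34 such genes, of which 6 had 3 regions. At Zmiz1, a transcriptional coactivator gene, the region 3404 bp wide was whole at 1 week and broken at 5 weeks over 71.5%, the one of 2263 bp was whole at both times, and the one of 2403 bp was covered over 9.40% and 10.4%. At Rora, a nuclear receptor gene, regions of 2478 and 2428 bp were broken at 1 week over 61.3% and 41.6% and whole at 5 weeks, while the one of 2020 bp was whole in both lists. At Vegfa, an angiogenic growth factor gene, 3 regions of 2865, 2639 and 2381 bp were covered over 55.5%, 77.6% and 29.7% at 1 week and over 91.9%, 100% and 98.6% at 5 weeks. Neighbouring regions of 1 gene were thus not always in the same state. These genes were chosen after their values were seen.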
